A study of Mus musculus with 6 samples.

Results

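The genes described here are 3 Notch receptors (Notch1, Notch2 and Notch3), 6 genes known as targets of Notch signalling (Hes1, Dtx1, Nrarp, Heyl, Hey1 and Hes5) and Rbpj, which encodes the DNA-binding partner of the receptors. They were taken by gene name, and all 10 were found among the 54532 genes of the deposited table. The comparison between the genotypes was known when they were chosen, so their levels are given as a description and carry no test.

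The libraries came from bone marrow (BM) of C57BL/6 mice, 100 days after transplantation. Donors of the 3 knockout (KO) libraries were Vav1-Cre;Phf6 fl/y, in which Cre is driven in blood-forming cells, and donors of the 3 wild-type (WT) libraries were Phf6 fl/y without Cre; donors and recipients were male and 8 weeks old. Donor progenitors of both groups carried JAK3 M511I, an activated Janus kinase delivered by a retrovirus that also encodes GFP, and the recipients were lethally irradiated. Every library is therefore from a transplanted host with JAK3 M511I, which models T-cell acute lymphoblastic leukemia (T-ALL), and the comparison is between Phf6 genotypes within that background. The genotype labels carry a digit that rises from sample to sample, and were read as Phf6 from the design text of the series. It is not stated in the sources used here whether GFP+ cells were sorted before RNA extraction. The study reported a larger share of GFP+ cells in the BM of KO than of WT mice, at a time other than that of these libraries. Nor is it stated that the 3 libraries of a group came from separate mice, so the spread may in part be technical.

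Notch receptors are single-pass membrane proteins. A ligand of the Delta or Jagged family on a neighbouring cell triggers cleavage of the receptor by an ADAM protease and then by gamma-secretase, and the freed intracellular domain enters the nucleus. There it binds RBPJ and a Mastermind coactivator and switches on genes such as Hes1, Dtx1 and Nrarp. In the thymus NOTCH1 is required for the T cell fate, and NOTCH3 and PTCRA (the pre-T cell receptor alpha chain) are induced in early thymocytes. Activating NOTCH1 mutations are common in T-ALL. NOTCH2 is best known for its part in marginal zone B cell development.

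RBPJ recognises a short DNA motif whose core is TGGGAA. Promoter windows from RefSeq (build GRCm38.p6), running from 250 bases before the start site to 50 bases from it on, were held for 7 of the 10 genes. Hes1, Heyl and Hey1 had none. Both receptors with the largest differences in level, Notch1 and Notch3, are shown with Dtx1, the most abundant target in KO, and with Hes5, which holds the motif. All are written 5′ to 3′ on the strand of the gene, with TGGGAA or its reverse complement TTCCCA in capitals.
Notch1 (chr2:26503773-26504072, minus strand): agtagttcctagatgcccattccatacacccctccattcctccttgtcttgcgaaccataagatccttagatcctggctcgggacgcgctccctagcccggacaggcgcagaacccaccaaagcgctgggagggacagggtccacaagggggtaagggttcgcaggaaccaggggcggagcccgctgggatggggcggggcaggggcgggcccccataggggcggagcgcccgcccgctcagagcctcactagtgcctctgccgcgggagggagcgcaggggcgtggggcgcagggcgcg
Notch3 (chr17:32166841-32167140, minus strand): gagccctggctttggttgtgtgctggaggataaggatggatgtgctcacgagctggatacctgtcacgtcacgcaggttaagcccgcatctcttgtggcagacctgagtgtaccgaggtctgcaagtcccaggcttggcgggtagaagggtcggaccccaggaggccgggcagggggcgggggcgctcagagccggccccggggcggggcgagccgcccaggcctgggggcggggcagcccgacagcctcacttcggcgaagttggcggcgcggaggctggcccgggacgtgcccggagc
Dtx1 (chr5:120711620-120711919, minus strand): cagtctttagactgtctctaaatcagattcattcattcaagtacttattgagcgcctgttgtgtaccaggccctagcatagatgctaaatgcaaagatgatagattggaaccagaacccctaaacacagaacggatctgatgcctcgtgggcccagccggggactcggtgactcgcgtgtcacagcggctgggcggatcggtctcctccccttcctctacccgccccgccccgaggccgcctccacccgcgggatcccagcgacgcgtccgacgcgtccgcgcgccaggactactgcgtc
Hes5 (chr4:154960673-154960972, plus strand): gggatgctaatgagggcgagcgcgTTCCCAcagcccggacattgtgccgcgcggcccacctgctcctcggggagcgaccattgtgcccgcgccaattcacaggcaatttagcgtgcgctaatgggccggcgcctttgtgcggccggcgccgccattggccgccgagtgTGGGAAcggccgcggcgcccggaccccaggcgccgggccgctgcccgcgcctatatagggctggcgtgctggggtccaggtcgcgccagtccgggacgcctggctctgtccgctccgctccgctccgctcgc
The windows of Notch1, Notch3 and Dtx1 have no capitals. The Hes5 window holds the letters on the minus strand 226 bases before the start site and on the plus strand 82 bases before it, and each match is part of the longer form GTGGGAA. The windows of Notch2 and Nrarp had no match, and both windows of Rbpj did, so 2 of 7 genes held TGGGAA. Over all 27025 mouse genes with a window, 28.3% held it in at least 1 window and 7.25% held GTGGGAA; over all 32851 windows the shares were 25.6% and 6.38%. The start sites of the windows of Notch1, Notch2, Dtx1 and Rbpj lie inside the genes as the deposited table draws them. Those of Rbpj are at bases 53590346 and 53590486 of chr5, while the gene as drawn starts at 53466152. The Rbpj matches are thus far from the 5′ end of the drawn gene. Binding was not measured in these data.

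Reads per library, recovered from the deposited FPKM (fragments per kilobase of gene, scaled to library size), ran from 13015823 to 18235095. Phf6 itself had 7.47, 3.67 and 8.02 FPKM in WT 1, WT 2 and WT 3 and 6.73, 5.50 and 5.11 FPKM in KO 1, KO 2 and KO 3, so its level did not separate the groups; the loxP sites flank only part of the gene, and directions rest on the labels. WT 2 stood apart. Genes of at least 8000 bases took 6.74% of its reads and 22.9% to 26.5% of the reads of every other library, and values without it are given where it moves a result. Transcripts of T cells were abundant in all 6 libraries (summed FPKM of 11 T cell genes 1244 to 3033 in WT and 1572 to 1988 in KO). The libraries also differed in other cells. The summed FPKM of 12 neutrophil genes was 6762 to 94026 in WT and 92.2 to 285 in KO, and all 12 fell in KO. The 8 immature thymocyte genes summed to 27.0 to 44.3 FPKM in WT and 706 to 839 FPKM in KO, all 8 rose, and Ptcra was at 0 in every WT library. This list, like the other marker lists, was written with earlier results of these data known, so nothing is read from the count that rose. The 10 effector CD8 T cell genes summed to 1359 to 4218 FPKM in WT and 578 to 634 FPKM in KO, where 9 fell and Gzma, named after its values were seen, rose. The 6 NK cell genes summed to 32.9 to 61.0 FPKM in WT and 22.3 to 55.4 FPKM in KO; of the 4 tested, 3 fell and Khdc1a, also named later, rose, and Klra4 and Klra8 were at 0 in all KO libraries. In bulk RNA a change in the number of cells of a type and a change in RNA per cell cannot be told apart. The part of these cells in the results below was not tested.

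Among the receptors, Notch1 and Notch3 were higher in KO and Notch2 was lower. Notch1 (ENSMUSG00000026923, chr2:26457903-26516663, minus strand, GRCm38) encodes the receptor that sets the T cell fate. Its level was 18.9, 1.26 and 16.9 FPKM in WT 1, WT 2 and WT 3 and 211, 140 and 170 FPKM in KO 1, KO 2 and KO 3. All KO libraries lay above all WT libraries, and WT 2 lay far below the other WT libraries. The mean was 12.4 ± 9.67 FPKM (SD, n = 3) in WT and 174 ± 35.7 FPKM (SD, n = 3) in KO. The difference was 4.21 with a standard error of 0.84 on the log2(FPKM + 1) scale, in which 1 is added to each FPKM value so that low values can be used. Without WT 2 it was 3.19, and the mean of WT 1 and WT 3 was 17.9 FPKM. Notch1 has a long transcript, and genes of at least 8000 bases were lower in WT 2, with a median log2 difference from the mean of WT 1 and WT 3 of -0.90. For Notch1 that difference was -3.07, and -1.98 once the trend with gene length was removed.

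Notch3 (ENSMUSG00000038146, chr17:32120820-32166880, minus strand) encodes a receptor that is induced by NOTCH1 in early thymocytes. It was close to absent in WT. Its reads numbered 6, 11 and 4 in WT 1, WT 2 and WT 3, compared with 24347, 14700 and 14082 in KO 1, KO 2 and KO 3. In FPKM this was 0.0483, 0.116 and 0.0321 in the WT libraries, and 162, 116 and 109 in the KO libraries. The groups were far apart, and WT 2 was the highest of the WT libraries here, in contrast to Notch1. The difference was 6.91 with a standard error of 0.25 on the log2(FPKM + 1) scale, which understates it because of the added 1, and 6.94 without WT 2. The ratio of the mean FPKM was 1969, and its WT side rests on 21 reads in all, 11 of them from WT 2. Without WT 2 the ratio was 3211. A gene on the opposite strand, Gm17276, lies across part of Notch3. It had no reads in WT and 37, 53 and 29 reads in KO 1, KO 2 and KO 3, and the use of strand in counting is not stated, so a small part of the reads of either gene may belong to the other.

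Notch2 (ENSMUSG00000027878, chr3:98013527-98150361, plus strand) ran the other way. Its level was 20.8, 5.76 and 11.0 FPKM in WT 1, WT 2 and WT 3 and 1.79, 1.31 and 2.07 FPKM in KO 1, KO 2 and KO 3. Every KO library lay below every WT library, and the WT libraries were spread more widely. The mean was 12.5 ± 7.62 FPKM (SD, n = 3) in WT and 1.72 ± 0.382 FPKM (SD, n = 3) in KO, a difference of -2.16 with a standard error of 0.45 on the log2(FPKM + 1) scale. Without WT 2 it was -2.58. All 12 neutrophil genes also fell in KO, and so did 5 of the 10 monocyte and macrophage genes tested, against 13.3% of all genes tested. The monocyte and macrophage list summed to 340 to 4786 FPKM in WT and 16.2 to 27.7 FPKM in KO. In WT 1, WT 2 and WT 3 the neutrophil sum was 33323, 94026 and 6762 FPKM. The monocyte and macrophage sum was 1855, 4786 and 340 FPKM. WT 1 lay above WT 3 in Notch2 and in both sums, while WT 2 was lowest in Notch2 and highest in both sums. Notch2 in WT 2 differed from the mean of WT 1 and WT 3 by -1.26 on the log2(FPKM + 1) scale. Once the trend with gene length was removed, that difference was -0.40. The part of neutrophils, monocytes and macrophages in the level of Notch2 was not tested. Of the 5 B cell genes tested 1 fell, and the list of 10 summed to 15.5 to 1121 FPKM in WT and 1.86 to 12.4 FPKM in KO. The 4 genes taken as marginal zone B cell markers summed to 8.10 to 20.1 FPKM in WT and 19.6 to 27.4 FPKM in KO. Most of that sum in KO was Cd1d1, which is also in the immature thymocyte list, while Cr2 and Fcer2a were at most 0.141 FPKM and S1pr3 was at 0 in all KO libraries.

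**Figure D1:**
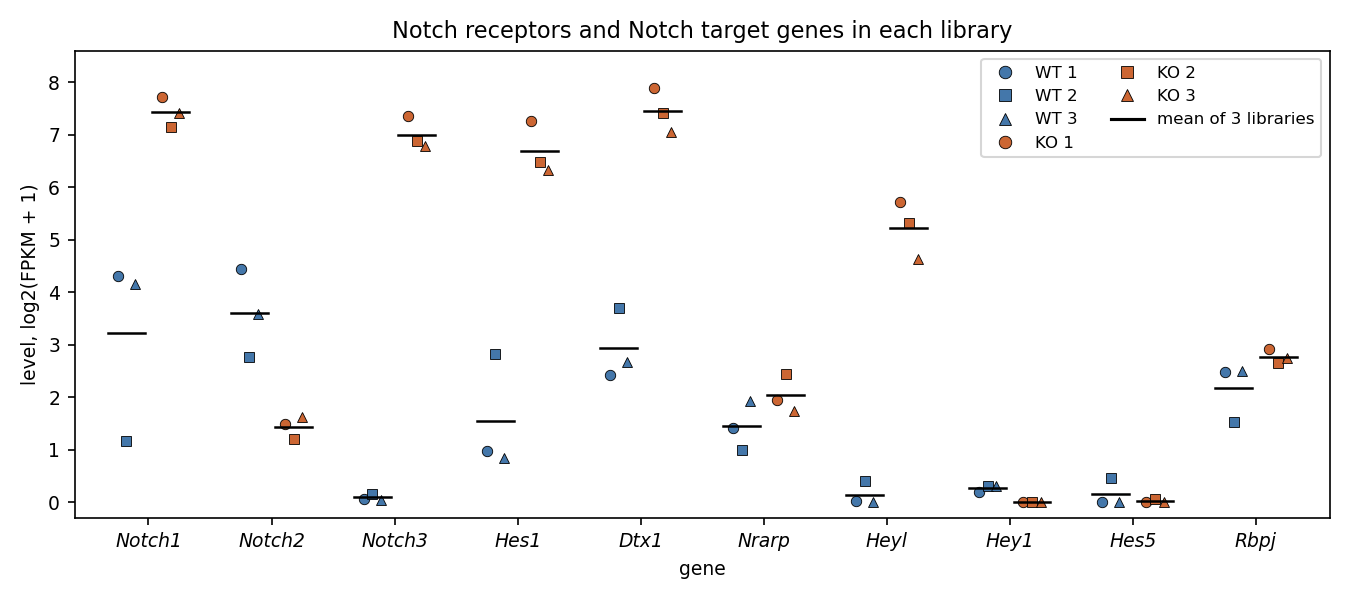
Level of the 10 genes in each library, on the log2(FPKM + 1) scale, with WT in blue, KO in orange, the marker shape giving the replicate number and a bar at the mean of 3 libraries. Notch1, Notch3, Hes1, Dtx1 and Heyl sit higher in all KO libraries, Notch2 sits lower, and Nrarp overlaps between the groups.

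The make-up of the receptor pool within a library does not depend on how libraries are scaled to each other. Of the summed FPKM of Notch1 to Notch4, Notch1 made up 47.3%, 16.9% and 60.1% in WT 1, WT 2 and WT 3 and 56.2%, 54.3% and 60.5% in KO 1, KO 2 and KO 3. Those ranges overlap. The share of Notch2 was 52.0%, 77.3% and 39.0% in the WT libraries and 0.477%, 0.510% and 0.737% in the KO libraries. The share of Notch3 was 0.121%, 1.56% and 0.114% in WT and 43.3%, 45.1% and 38.7% in KO. Notch2 was thus a main receptor transcript beside Notch1 in each WT library, and Notch3 took that place in each KO library. The mean share of Notch3 differed by 41.8 percentage points between the groups and that of Notch2 by -55.5 percentage points; without WT 2 these were 42.2 and -44.9. For Notch1 the difference of the mean shares was 15.6 percentage points, and 3.31 without WT 2. Notch4, best known from endothelium, held 0.503%, 4.25% and 0.852% in WT and 0.0439% to 0.0765% in KO. It had 16 to 41 reads in any library.

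The receptor pool as a whole was also larger in KO. The summed FPKM of the 4 receptors was 39.9, 7.45 and 28.2 in WT 1, WT 2 and WT 3 and 376, 258 and 281 in KO 1, KO 2 and KO 3. In WT this gave a mean of 25.2, and of 34.0 without WT 2. Against Lck, a kinase of T cells with 175 to 193 FPKM in WT and 302 to 312 FPKM in KO, the ratio of Notch1 to Lck was 0.104, 0.00650 and 0.0965 in the WT libraries and 0.677, 0.459 and 0.563 in the KO libraries. Notch1 was thus higher relative to Lck of the same library as well. Lck is 1 of the 11 T cell genes, was named after its values were seen, and is also listed below among Notch targets or partners in the T lineage. Other T cell genes were not used in this way, and they did not all run in the direction of Lck. The ratio of Notch1 to Notch3 was close within KO, at 1.30, 1.21 and 1.56, so both receptors were present at similar levels there.

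**Figure D2:**
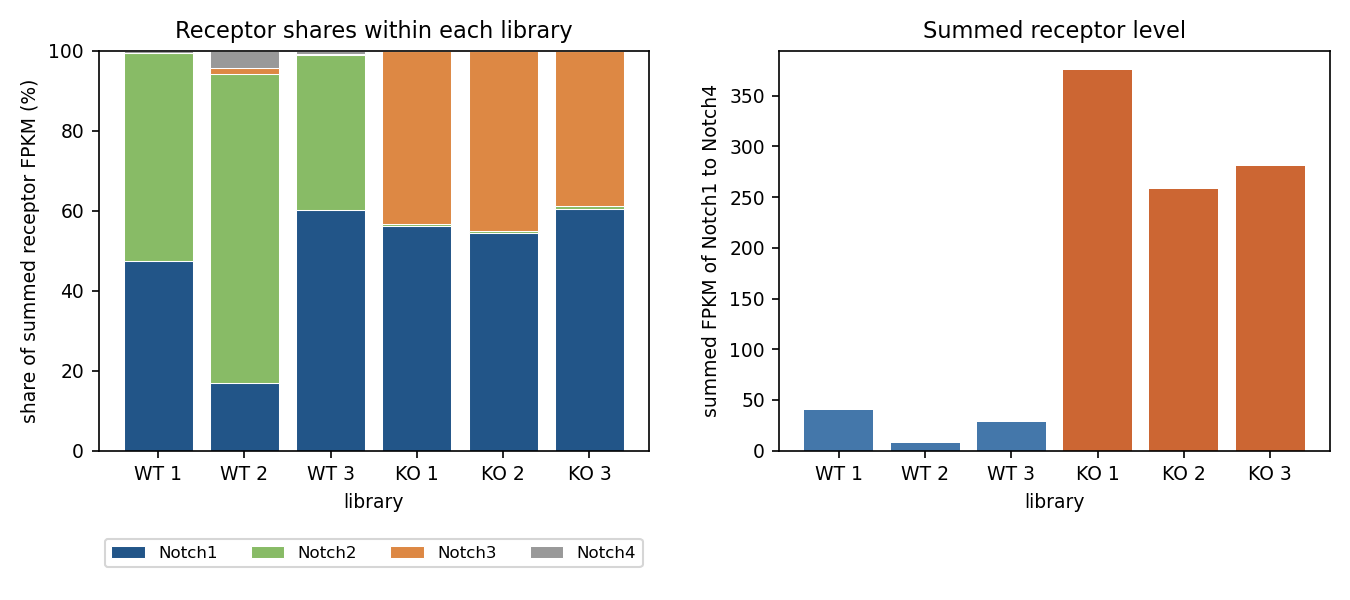
Left, share of each Notch receptor in the summed FPKM of Notch1 to Notch4 within each library, in percent; right, the summed FPKM itself. Notch2 holds 39.0% to 77.3% of the pool in WT, Notch3 holds 38.7% to 45.1% in KO, and the sum is 7.45 to 39.9 FPKM in WT against 258 to 376 FPKM in KO.

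Among the target genes, Hes1, Dtx1 and Heyl were far higher in KO, Nrarp was low in both groups, and Hey1 and Hes5 were near the limit of detection. Hes1 (ENSMUSG00000022528, chr16:30064384-30067796, plus strand) encodes a basic helix-loop-helix repressor and is a direct target in many tissues. It had 0.954, 6.10 and 0.792 FPKM in WT 1, WT 2 and WT 3 and 152, 88.4 and 79.3 FPKM in KO 1, KO 2 and KO 3. The groups did not overlap, and WT 2 was several times higher than the other WT libraries. The difference was 5.14 with a standard error of 0.59 on the log2(FPKM + 1) scale, and 5.79 without WT 2. The mean in WT was 2.61 ± 3.02 FPKM (SD, n = 3) with that library and 0.873 FPKM without it.

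Dtx1 (ENSMUSG00000029603, chr5:120680202-120711927, minus strand) encodes Deltex1, a ubiquitin ligase that binds the intracellular part of Notch. It had 4.39, 11.98 and 5.33 FPKM in WT 1, WT 2 and WT 3 and 235, 171 and 132 FPKM in KO 1, KO 2 and KO 3. All KO libraries were above all WT libraries, and WT 2 was again the highest in WT. The mean was 7.23 ± 4.14 FPKM (SD, n = 3) in WT and 179 ± 51.9 FPKM (SD, n = 3) in KO, a difference of 4.52 with a standard error of 0.41 on the log2(FPKM + 1) scale, and 4.91 without WT 2.

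Heyl (ENSMUSG00000032744, chr4:123233556-123249875, plus strand), a repressor of the HEY family that is best known from smooth muscle and pericytes, was barely read in WT. Its reads numbered 1, 19 and 0 in WT 1, WT 2 and WT 3 and 4896, 3139 and 1965 in KO 1, KO 2 and KO 3. Its level in KO was 51.4, 39.0 and 23.9 FPKM, and it was at most 0.316 FPKM in WT. Heyl was thus abundant in KO and nearly absent in WT, where 19 of the 20 reads came from WT 2. The difference was 5.09 with a standard error of 0.34 on the log2(FPKM + 1) scale, and 5.21 without WT 2. Of 10 stromal and pericyte genes, Pdgfra, Rgs5 and Cspg4 were at 0 in every KO library, and the list summed to 4.19 to 12.9 FPKM in WT and 20.8 to 29.6 FPKM in KO. Pdgfrb, the most abundant of them in KO, was chosen for mention after its values were seen; it had 0.367, 0.109 and 0.0589 FPKM in WT 1, WT 2 and WT 3 and 22.3, 13.6 and 17.1 FPKM in KO 1, KO 2 and KO 3. The 10 endothelial genes summed to at most 3.42 FPKM in any library.

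Nrarp (ENSMUSG00000078202, chr2:25180758-25183339, plus strand) encodes a small ankyrin repeat protein that damps Notch signalling, and it is often used as a readout of the pathway. It had 1.66, 0.988 and 2.80 FPKM in WT 1, WT 2 and WT 3 and 2.83, 4.40 and 2.33 FPKM in KO 1, KO 2 and KO 3. The groups overlapped, since KO 3 lay below WT 3. The difference was 0.59 with a standard error of 0.33 on the log2(FPKM + 1) scale, and 0.37 without WT 2. Nrarp therefore stood at a few FPKM in KO, where Hes1, Dtx1 and Heyl ranged from 23.9 to 235 FPKM, and the ratio of Dtx1 to Nrarp was 2.65, 12.1 and 1.90 in the WT libraries and 83.0, 38.7 and 56.5 in the KO libraries.

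Hey1 (ENSMUSG00000040289, chr3:8663359-8667256, minus strand) and Hes5 (ENSMUSG00000048001, chr4:154960923-154962371, plus strand), both repressors induced by Notch in other tissues, were too low to be tested. Reads of Hey1 numbered 7, 9 and 12 in WT 1, WT 2 and WT 3, with none in KO, which was at least 3.71-fold lower when each KO library is set at a floor of 3 reads. Hes5 had 6 reads in WT 2, 1 read in KO 2 and none elsewhere, which is too few for a comparison. The motif in the Hes5 promoter window shown above thus went with a gene that was barely detected. Rbpj (ENSMUSG00000039191, chr5:53466152-53657362, plus strand) had 4.58, 1.89 and 4.68 FPKM in WT 1, WT 2 and WT 3 and 6.57, 5.28 and 5.73 FPKM in KO 1, KO 2 and KO 3. The groups did not overlap, but by a small margin, as the lowest KO library was 1.13 times the highest WT library. The difference of Rbpj was 0.60 with a standard error of 0.33, 0.28 without WT 2 and 0.29 once the length trend was removed, on the log2(FPKM + 1) scale.

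Counted over the 10 genes, 8 passed the filter of at least 1 FPKM in at least 3 libraries, and 2 of them (Notch3 and Heyl) passed it through the KO libraries only. Of the 8, 6 lay past the threshold of the fit over all genes (limma, adjusted p under 0.05), 5 higher in KO and 1 lower; 26.4% of all 13393 genes tested were past it, 13.1% higher and 13.3% lower. The groups did not overlap in 7 of the 8 (6 higher and 1 lower in KO), compared with 49.1% of all genes tested (26.2% higher and 22.9% lower). Since the genes were chosen on this contrast, nothing is read from these counts. Leaving out KO 1 or KO 3 took Notch1 and Notch2 off the list past the threshold, which left 4, and leaving out KO 2 took Notch2 off, which left 5. Rescaling to TPM (values set to the same sum in each library) also took Notch2 off. None of the 8 changed direction in any of the 14 alternatives that tested it.

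**Figure D3:**
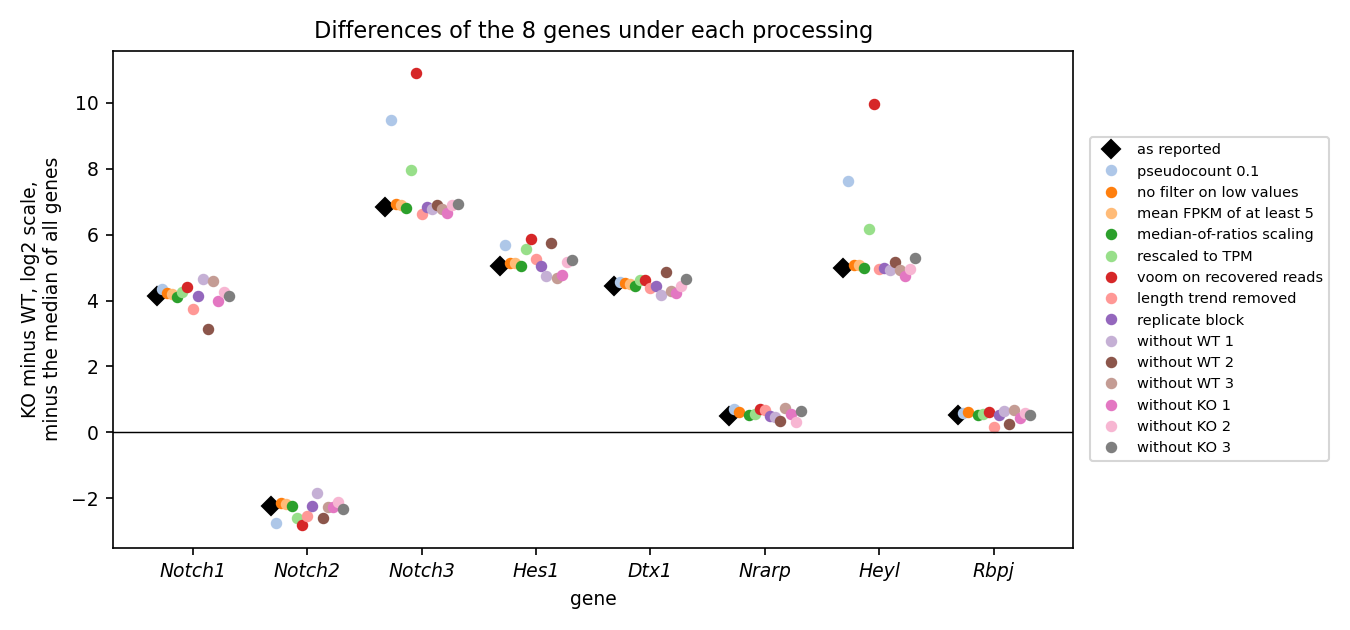
Difference between KO and WT of the 8 genes that passed the filter, as analysed and under 14 other settings, on the log2 scale of each setting and after subtraction of the median of all genes. Notch2 stays between -2.82 and -1.85 and Notch1 between 3.15 and 4.65, while Notch3 and Heyl reach 10.9 and 9.98 where less is added to low values.

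The order of the levels differed between the groups. In KO the mean level fell from Dtx1 through Notch1, Notch3 and Hes1 to Heyl, Rbpj, Nrarp and Notch2. Neighbours among the first 4 overlapped in their ranges, whereas Hes1 and Heyl, Heyl and Rbpj, Rbpj and Nrarp, and Nrarp and Notch2 did not. Dtx1, Notch1, Notch3 and Hes1 were at the 98.3 percentile or above of protein-coding genes in each KO library. In WT the order was Notch2, Notch1, Dtx1, Rbpj, Hes1 and Nrarp, and each of these overlapped with its neighbour. Hey1, Hes5, Heyl and Notch3 followed, all under 1 FPKM.

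The KO libraries differed among themselves, in an order that only some of the genes shared. Notch2 was highest in KO 3 and Nrarp in KO 2, and Notch1 and Rbpj ran from KO 1 through KO 3 to KO 2. KO 1 was highest for Notch1, Notch3, Hes1, Dtx1, Heyl and Rbpj, and Notch3, Hes1, Dtx1 and Heyl all ran from KO 1 through KO 2 to KO 3. KO 1 was the highest KO library in 36.6% of all genes tested, and 18.4% had that same full order. The ratio of KO 1 to KO 3 was 2.15 for Heyl, 1.92 for Hes1, 1.78 for Dtx1 and 1.49 for Notch3. For Notch1, Nrarp, Rbpj and Notch2 that ratio was 1.24, 1.21, 1.15 and 0.867. Of the genes with at least 1 FPKM in each KO library, 7.43% had a ratio of at least 1.5.

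WT 2 moved the members in different directions. Set against the mean of WT 1 and WT 3 on the log2(FPKM + 1) scale, WT 2 was lower for Notch1 (-3.07), Notch2 (-1.26), Rbpj (-0.96) and Nrarp (-0.68) and higher for Hes1 (1.92) and Dtx1 (1.15). After removal of the length trend Rbpj was at 0.037 and Notch2 at -0.40, while Hes1 and Dtx1 stayed at 1.36 and 1.38. Among the WT libraries, WT 2 also had the highest sum of every marker list except that of NK cells. For B cell genes this was 1121 FPKM, against 15.5 and 21.8 FPKM in WT 1 and WT 3. For T cell genes it was 3033 FPKM, against 1244 and 1388 FPKM, and for immature thymocyte genes 44.3 FPKM, against 27.0 and 32.0 FPKM. The FPKM of all genes summed to 897352 in WT 2, against 329893 and 305933 in WT 1 and WT 3. The part of these cells, or of this larger sum, in the level of Hes1 or Dtx1 in WT 2 was not tested.

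Genes with the most similar profiles were sought among the 10380 protein-coding genes tested outside the 10, by the root mean square difference of log2(FPKM + 1) after each gene was centred on its mean over the 6 libraries. The nearest to Notch3 were Ptcra (0.244), Il2ra (0.357) and Gm525 (0.466). The nearest to Notch1 were Rtl10 (0.549), Rapgef2 (0.624) and Tcf12 (0.628), which shared with it the low value in WT 2. Those of Dtx1 were Strc (0.306), a (the agouti gene, 0.313) and Xrcc6 (0.324), and those of Notch2 were Vav3 (0.130), Map3k9 (0.139) and Cd44 (0.141). Without WT 2 only 2 of these 12 were still among the nearest 3, so the ranking was not stable to its removal. No other library was left out for this ranking.

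The rest of the pathway did not move as a block. Of 93 further genes of the pathway, 71 were tested; 11 rose (15.5%) and 11 fell (15.5%), against 13.1% and 13.3% of all genes (limma). Their median difference was 0.010, and that of all genes 0.086, on the log2(FPKM + 1) scale. Without WT 2, 20 rose and 20 fell, while 26.8% and 25.3% of all genes did. After rescaling to TPM 13 rose and 4 fell, on a scale whose median over all genes was 0.86. In 9 of the 22 the call held under each alternative that tested the gene. In each of the 22 the groups did not overlap, compared with 49.1% of all genes tested. The 22 were called on this same contrast, so nothing is read from that separation. Maml3 and Ptcra passed the filter through the KO libraries only, and Tle1, Tle4 and Neurl3 through the WT libraries only. The filter was thus met in the group where each was high, and the calls of these genes carry that limit.

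Of the 8 ligand genes only Jag2, which encodes a Jagged ligand, was tested. It had 0.716, 0.672 and 1.53 FPKM in WT 1, WT 2 and WT 3 and 4.80, 3.55 and 3.41 FPKM in KO 1, KO 2 and KO 3, and it rose by 1.33 on the log2(FPKM + 1) scale (standard error 0.26; limma, adjusted p = 0.0117). The call was lost without KO 1 (adjusted p = 0.0501). Dll1 and Dll4, the ligands of the Delta family that activate NOTCH1 in thymus and marrow, had at most 15 reads in any library. Reads of Jag1, named after its values were seen, numbered 73, 19 and 35 in WT 1, WT 2 and WT 3 and 5, 5 and 0 in KO 1, KO 2 and KO 3. Jag2 was thus the 1 ligand gene above the filter in these libraries.

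Of the 5 sugar-transferring enzymes tested, Lfng fell. Lunatic fringe modifies the receptor so that it responds more to Delta than to Jagged ligands. Its level was 42.4, 21.9 and 68.7 FPKM in WT 1, WT 2 and WT 3 and 6.43, 5.27 and 9.08 FPKM in KO 1, KO 2 and KO 3, a difference of -2.40 (standard error 0.44; limma, adjusted p = 0.00958). All KO libraries were well below all WT libraries, though the call was lost after rescaling to TPM and without KO 2 (adjusted p from 0.000796 to 0.158 over the alternatives). Mfng, the other fringe of lymphocytes, stood at a mean of 42.0 FPKM in WT and 29.1 FPKM in KO and did not pass (adjusted p = 0.300, limma). The 8 tested genes of the receptor protease list encode proteases that cut the receptor or subunits of gamma-secretase. Among them Psen2, a catalytic subunit of gamma-secretase, fell from 12.9 ± 3.80 to 2.20 ± 0.560 FPKM (SD, n = 3, log2 difference -2.10, adjusted p = 0.00349, limma). Adam10, an ADAM protease that cuts the receptor, had a mean of 25.4 FPKM in WT and 24.5 FPKM in KO and did not pass.

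Of the nuclear partners, 1 of 8 coactivators and 5 of 12 corepressors (2 higher, 3 lower) passed, next to 26.4% of all genes in either direction. Maml3, a Mastermind coactivator, rose from 0.435 ± 0.0307 to 3.15 ± 1.36 FPKM (SD, n = 3; log2 difference 1.48, adjusted p = 0.0113, limma). The Groucho corepressors Tle1 and Tle4, which HES proteins recruit, both fell. Tle4 had 21.9, 9.20 and 20.95 FPKM in WT 1, WT 2 and WT 3 and 0.162, 0.233 and 0.281 FPKM in KO 1, KO 2 and KO 3, a difference of -3.82 (adjusted p = 0.000914, limma). Tle1 (adjusted p = 0.00229, limma) fell by 1.52 on the log2 scale, from 1.34 to 2.21 FPKM in WT to at most 0.00713 FPKM in KO. Tle3, of the same family, had a mean of 20.2 FPKM in WT and 18.6 FPKM in KO and did not pass. L3mbtl3, a partner of RBPJ, fell by 1.30, while the deacetylase Hdac1 rose by 0.98 and the RBPJ-binding corepressor Cir1 rose by 0.80, all in log2 units (adjusted p = 0.0141, 0.0197 and 0.0442 by limma). The calls of these last 3 were lost in 3, 6 and 9 of the alternatives, in that order.

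Of the 16 genes of receptor endocytosis and ubiquitination tested, 2 rose and 2 fell (12.5% each), close to the 13.1% and 13.3% of all genes. Neurl3, of the Neuralized family of ubiquitin ligases, had 114, 55.3 and 103 FPKM in WT 1, WT 2 and WT 3 and 0.884, 0.217 and 0.965 FPKM in KO 1, KO 2 and KO 3. The groups were far apart, with a difference of -5.73 (standard error 0.37; limma, adjusted p = 0.000292). Mib2, a ligase that acts on ligands, fell by 1.07, and the ligase genes Nedd4 and Dtx3l, the latter a relative of Dtx1, rose by 1.34 and 1.23 on the log2 scale (adjusted p = 0.0203, 0.0235 and 0.0196, limma). The call of each of these 3 was lost when any KO library was left out and after rescaling to TPM, where the difference of Mib2 was -0.33 (adjusted p = 0.538, limma). Fbxw7, the ligase that ends the life of the Notch intracellular domain and is often mutated in T-ALL, had a mean of 8.63 FPKM in WT and 6.51 FPKM in KO and did not pass (adjusted p = 0.285, limma). Of the 8 other genes listed with the HES and HEY families, 2 were tested. Bhlhe40, which belongs to a related family and not to HES or HEY, fell from 20.8 ± 8.48 to 1.92 ± 0.524 FPKM (SD, n = 3, adjusted p = 0.00254, limma). That call was lost after rescaling to TPM. Hes6, also tested, had 12.3, 80.9 and 16.2 FPKM in WT 1, WT 2 and WT 3 and 41.8, 44.7 and 43.6 FPKM in KO 1, KO 2 and KO 3. It did not pass (adjusted p = 0.473, limma). Without WT 2 it was higher in KO by 1.56 (adjusted p = 0.000693, limma), and it also passed after rescaling to TPM.

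The 20 genes known as Notch targets or partners in the T lineage gave both directions. Of 19 tested, 5 rose (26.3%) and 3 fell (15.8%), next to 13.1% and 13.3% of all genes. Ptcra had no reads in any WT library and 161, 167 and 137 FPKM in KO 1, KO 2 and KO 3, at least 928-fold higher than a floor of 3 reads per library. Il2ra, the alpha chain of the IL-2 receptor (CD25), had 0.545, 2.16 and 1.19 FPKM in WT 1, WT 2 and WT 3 and 220, 245 and 224 FPKM in KO 1, KO 2 and KO 3. Both were thus scarce in each WT library and abundant in each KO library, and the difference of Il2ra was 6.71 (standard error 0.31; limma, adjusted p = 0.000233).

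Tspan3, a tetraspanin, rose by 2.58 and Trib2, a pseudokinase known as a Notch target in leukemia, by 2.51, while Bcl11b, a factor that fixes the T cell fate, rose by 1.48, all in log2 units (adjusted p = 0.000982, 0.00814 and 0.0191 by limma). The call of Bcl11b was lost when any KO library was left out. Il7r, the receptor chain for interleukin 7, had 219, 73.8 and 227 FPKM in WT 1, WT 2 and WT 3 and 16.8, 24.7 and 23.3 FPKM in KO 1, KO 2 and KO 3, a difference of -2.80 (adjusted p = 0.00757, limma). Gimap5, a GTPase of lymphocyte survival, fell by 1.80 and Arid5a, which encodes an RNA-binding protein, by 2.10 (limma, adjusted p = 0.00241 and 0.00633). The calls of Il7r, Gimap5 and Arid5a were lost after rescaling to TPM.

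Myc, a main effector of NOTCH1 in T-ALL, had 30.4, 45.1 and 53.3 FPKM in WT 1, WT 2 and WT 3 and 64.8, 79.1 and 126 FPKM in KO 1, KO 2 and KO 3. The groups did not overlap, but the difference of 1.03 did not pass (adjusted p = 0.0838, limma). Without WT 2 it did pass, as it did after rescaling to TPM and after removal of the length trend. Tcf7, a factor of early T cells, had a difference of 1.35 (adjusted p = 0.0962, limma) and passed without WT 2. Both gene names fall outside the rule for naming, and were added after their values were seen, as were Lck, Dll1, Dll4, Mfng, Adam10, Tle3, Fbxw7 and Hes6.

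**Figure D4:**
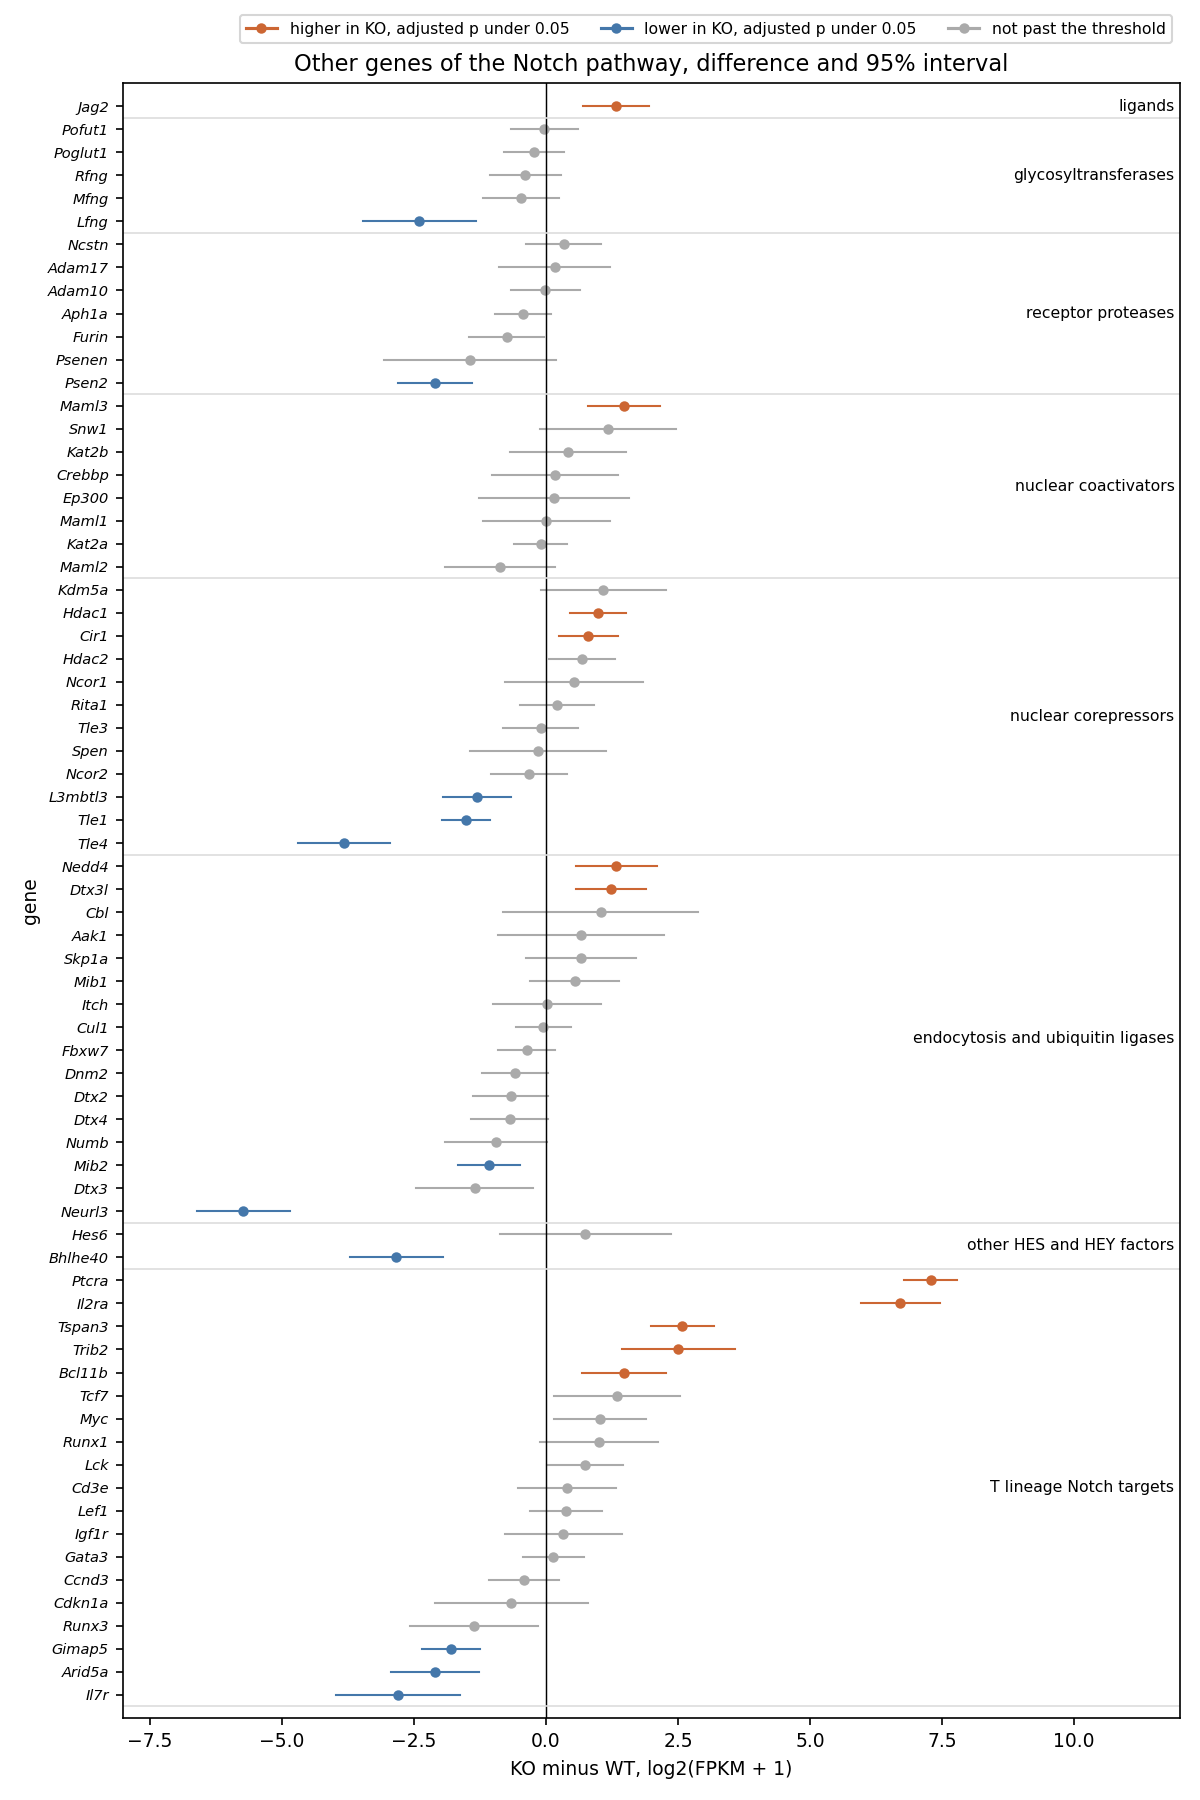
Difference between KO and WT of the tested genes of the Notch pathway outside the 10, on the log2(FPKM + 1) scale, with the 95% interval of the limma fit and genes grouped by role. Orange marks the 11 genes past the threshold and higher in KO, blue the 11 lower, and grey genes that did not pass; 1 of the tested genes is not drawn.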

How the data were processed

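BM RNA of 6 libraries was analysed, with 3 per Phf6 genotype (WT and KO). The authors used Trizol and a NEBNext Ultra kit, followed by paired-end sequencing (Illumina NovaSeq). The submitters' processing notes name HISAT2 (2.0.5), featureCounts (1.5.0-p3) and the build GRCm38 (mm10). The deposited values are FPKM, with the gene length used; the strand setting, the annotation release and the way library size was scaled are not given in the sources used here. FPKM times length was a whole number of steps (tolerance 0.001) in 100% of values, so reads were recovered. Their total divided by the library size of the authors was 1.55 in WT 2 and 0.827 to 0.994 elsewhere. A gene without reads could still have had up to 0.161 to 0.255 RPM (3 reads per library, counting error only).

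Genes of at least 1 FPKM in at least 3 libraries (13393) were tested on log2(FPKM + 1) by limma 3.58.1 (lmFit, eBayes with trend, two-sided; R 4.3.3), KO against WT, with no covariate, Benjamini-Hochberg adjustment over all of them and a threshold of 0.05. The study used a model for counts; the deposited unit required a test on a log scale. Replicates differed by more than sampling noise (chi-square per degree of freedom 21.1 to 601). The 10 genes, the pathway and marker lists and the rules were chosen with earlier results of these data known. All 10 genes and each tested pathway gene past the threshold are named; marker genes are named where they define a list or were at 0, and Notch4 as the rest of the receptor pool. Ep300, Cd1d1, Cr2 and Fcer2a were chosen after their values were seen, as was any other gene of which the text says so. Alternatives were a pseudocount of 0.1, no filter, a mean of at least 5 FPKM, median-of-ratios scaling, TPM, voom on the recovered reads, removal of the trend with gene length, the replicate number as a block, and leaving out each library. The model was tested on simulated data. Promoter windows came from RefSeq (GRCm38.p6), and both strands were searched for TGGGAA. A result for 1 pathway gene is not reported here.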

Additional observations from a re-analysis of the deposited data

How the results depend on the processing

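The number of genes past the threshold was 3539; it was 1837 with a mean of at least 5 FPKM and ranged from 1934 to 6967 when 1 library was left out, with the highest count without WT 2. Rescaling to TPM raised the median difference of all genes from 0.086 to 0.86 and gave 2279 higher and 1081 lower genes, in place of 1754 and 1785. Pathway genes that rose numbered 11 (5 to 20 with 1 library left out), and those that fell 11 (8 to 20 with 1 library left out, and 4 after rescaling to TPM). Of the 10 genes, 6 were past the threshold, 7 with no filter on low values (Hey1 was then tested and added), 5 after rescaling to TPM and 4 to 6 with 1 library left out. The share of Notch3 in the receptor pool differed by 41.8 percentage points (40.4 to 43.6 with 1 library left out), and by 29.0 in reads not divided by length; for Notch2 the range was -64.1 to -44.9. Without WT 2, 2 of the 12 nearest profiles were kept. Ep300 was the 1 pathway gene to change direction with a call: 0.15 as analysed (adjusted p = 0.878, limma) and -0.55 without WT 2 (adjusted p = 0.0237, within 0.0237 to 0.953 over the alternatives; -0.55 to 0.57 with 1 library left out); the cause was not tested. Replicate numbers did not pair the samples, as the correlations of their deviations from the group means were 0.0954, 0.105 and -0.153; with the replicate number as a block, 2676 genes passed, 8 pathway genes rose and 10 fell (Hdac1, Cir1, Nedd4 and Mib2 lost the call), and 6 of the 10 genes were past the threshold. Leaving out a library leaves a group of 2. Hes5, with 7 reads over all libraries, could not be compared at this depth.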
